A study of Mus musculus with 33 samples.

Results

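Transcript loss was measured over the first 2 h of a transcription block in cultured mouse hippocampal neural stem cells labelled as a conditional knockout (cKO) of Ythdf2. The comparison sets 3 RNA-seq libraries taken at 2 h of actinomycin D against 3 taken at 0 h, which makes 6 libraries of the 33 in the series. The members were chosen by their labels for genotype and time, and every gene in these libraries that passed a filter on low counts was tested. That left 14029 of 26621 gene symbols. Cells of every group came from the hippocampus of mice at postnatal day 0.5 and grew on poly-D-lysine in DMEM/F12 with B27, N2, bFGF and EGF. All of the RNA-seq groups received 5 µM actinomycin D, for 0, 2 or 4 h. The genotypes are labelled Nestin-cKO and Nestin-WT, which name the promoter Nestin and no other part of the allele. The libraries labelled cKO at 4 h (3), those labelled WT at 0 h and 2 h (3 each), and an m6A pull-down with its input from WT cells (3 each) are used below for comparison. Whether replicates came from separate animals or from repeat cultures is not stated, so the p-values measure the spread between libraries. In the main fit that spread was estimated over all 18 RNA-seq libraries together, those labelled WT included.

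Actinomycin D intercalates into DNA and stops RNA polymerases, so that no new RNA replaces what the cell degrades. The level of a transcript under the block then falls at the pace of its decay. Messages of transcription factors, cytokines and feedback inhibitors are known to be short-lived, and many carry AU-rich elements in the 3' untranslated region that recruit deadenylases. Messages for ribosomal proteins and metabolic enzymes are known to last for many hours. YTHDF2 is a cytoplasmic reader of N6-methyladenosine (m6A) that brings marked transcripts to the CCR4-NOT deadenylase. Levels here are normalized CPM, counts scaled to a common TMM-adjusted library size, a share of the messages in a library and not an amount per cell. Messages that last gain share while others are lost, and a higher value at 2 h is a rise relative to other transcripts. Whether the block was complete was not tested. In bulk libraries, a change in the number of cells of a type and a change in RNA per cell cannot be told apart.

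The 0 h libraries held 10257329 to 12033301 counts and the 2 h libraries 11235973 to 21353383. Between 16059 and 16694 symbols had at least 1 count at 0 h, and between 16573 and 16820 at 2 h. Ythdf2 itself (chromosome 4, 132184916 to 132212256, GRCm38.p6) went against the label. Its normalized CPM was 3117, 1035 and 736 in the 0 h libraries labelled cKO and 219, 253 and 258 in those labelled WT, so the genotype is given throughout as a label only. The deleted part of the gene is not given in the sources used here. The Ythdf2 message measured 1115, 1307 and 1167 CPM at 2 h in the libraries labelled cKO, a log2 change of -0.45 (SE 0.35, adjusted p = 0.45), and the groups overlap. In those labelled WT it measured 69.3, 66.6 and 88 CPM at 2 h, a log2 change of -1.705 (adjusted p = 0.00298 by edgeR). The difference between the 2 changes was 1.259 and did not pass the test. Replicates labelled cKO stood further apart than those labelled WT. The SD over 6042 well expressed genes of the log2 difference between a library and the other two of its group averaged 0.809, 0.584 and 0.669 for the 0 h libraries labelled cKO and 0.231 to 0.266 for those labelled WT.

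Neural stem cell messages were present in all 6 libraries. Vim, an intermediate filament of radial glia, measured 1671, 1803 and 1759 CPM at 0 h and 762, 1853 and 2915 at 2 h, with overlapping groups and a log2 change of 0.08 (SE 0.38, adjusted p = 0.918). Nes, the filament protein nestin, measured 46.9, 36.3 and 32.9 CPM at 0 h and 39.8, 56 and 39.5 at 2 h, also overlapping, with a log2 change of 0.22 (SE 0.22, adjusted p = 0.557). Of 14 stem cell markers tested, none rose and 3 fell, namely Hes1, Sox9 and Tnc. The Sox9 call was lost without either library of replicate 1 or the 2 h library of replicate 2 (adjusted p up to 0.21 over the alternatives). The cultures behind the replicates differed in their mix of messages. Summed CPM of 40 mitosis genes was 4960, 4590 and 1790 at 0 h and 6110, 4420 and 1400 at 2 h in replicates 1, 2 and 3, and the third replicate was the lowest at both times. Libraries with the same replicate number paired across times, and a fit with the replicate as a block is quoted below where it moves a count.

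Over the first 2 h, 1382 genes fell, which is 9.85% of the 14029 tested, and 310 rose, which is 2.21%. The p-values come from edgeR's quasi-likelihood test on all 18 RNA-seq libraries, adjusted by Benjamini-Hochberg over all genes tested, with a threshold of 0.05. For each gene that fit shares its estimate of spread over all groups, and libraries labelled WT lay closer together than those labelled cKO. With the 6 compared libraries fitted alone, 519 of 12599 genes were lower and 10 higher. Changes are log2 differences, so a negative value stands for a lower share at 2 h. Falls were larger than rises. Of the genes that fell, 1114 fell by over 1, 467 by over 2 and 176 by over 3 on the log2 scale, and their median change was -1.56. Of the genes that rose, 283 rose by over 0.5 and 70 by over 1, and their median change was 0.72. The median over all genes tested was 0.05. Every 2 h library lay below every 0 h library for 1326 of the genes called lower, against 2026 genes (14.4%) of all those tested. Every 2 h library lay above every 0 h library for 295 of the genes called higher, against 1080 (7.7%) of all tested. With the replicate as a block, which made 38.3% of the calls rises against 18.3% without it, 2214 genes were lower and 1373 higher, and these held all 1382 and 310 of the first fit. Leaving out all libraries labelled cKO with replicate number 2 left 597 lower and 51 higher. Without the 2 h library of replicate 2 alone, 831 were lower and 104 higher. Without all libraries of replicate 3, 1801 were lower and 1021 higher, and without its 0 h library alone the numbers were 1548 and 586. A list's count in any of these settings is to be read beside the count over all genes in the same setting.

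**Figure D1:**
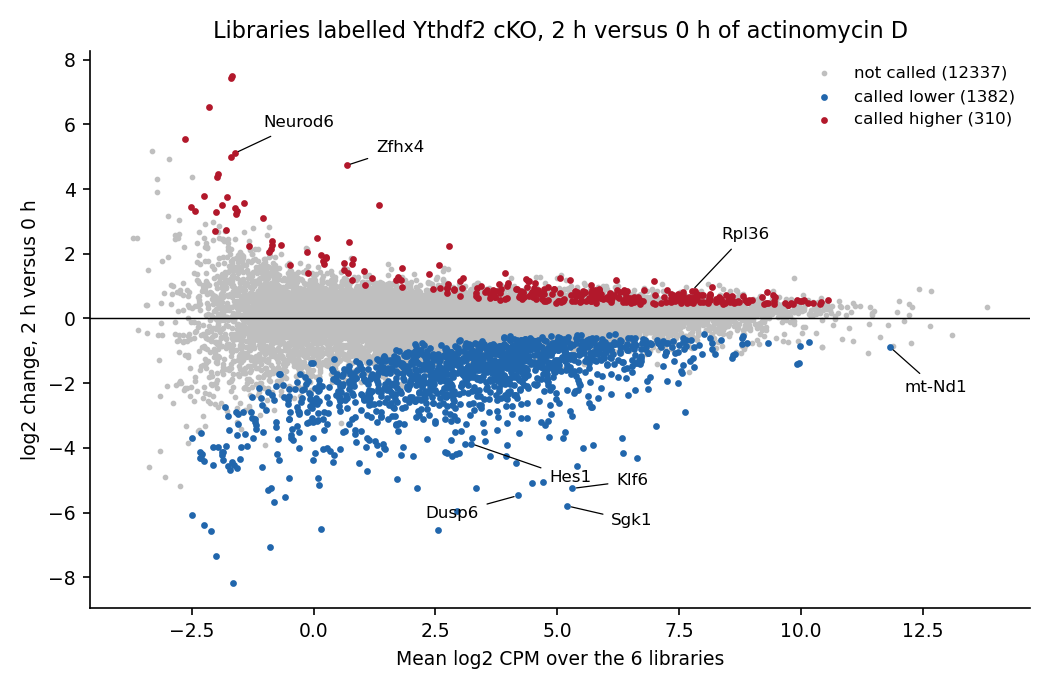
Each point is a gene; the x axis is the mean log2 CPM over the 6 libraries and the y axis the log2 change from 0 h to 2 h in the libraries labelled cKO. The 1382 genes called lower (blue) have a median change of -1.56 and the 310 called higher (red) one of 0.72; the median of all genes is 0.05, and with ribosomal protein genes as the reference the median of all genes would be -0.355.

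The 10 largest falls among well expressed genes were Sgk1, Dusp6, Klf6, Bhlhe40, Plk2, Rasl11a, Myc, Spry4, Spry2 and Klf10. Only called genes with groups that do not overlap were eligible, so for these 10 the lack of overlap was set by the choice. Sgk1 (chromosome 10, 21882184 to 21999903, GRCm38.p6) encodes a serum and glucocorticoid induced kinase. Its normalized CPM was 155, 410 and 295 at 0 h and 6.16, 3.94 and 5.34 at 2 h. The groups are far apart, and the log2 change was -5.79 (SE 0.35, adjusted p = 1.91e-08). Klf6 (chromosome 13, 5861489 to 5870393), a zinc finger transcription factor, measured 197, 260 and 289 CPM at 0 h and 8.32, 5.24 and 5.88 at 2 h, with no overlap and a log2 change of -5.25 (SE 0.23, adjusted p = 3.21e-10). Plk2, a polo-like kinase, fell from 256, 105 and 126 CPM to 6.16, 2.49 and 5.88 (log2 change -5.07). Rasl11a, a small GTPase of the Ras family, fell from 186, 198 and 239 CPM to 6.99, 8.38 and 11.1 (-4.56). Each of the 10 was called lower in every alternative that was tried, including each library left out in turn. Rnd3, an atypical GTPase named after its values were seen, fell from 187, 351 and 369 CPM to 17.4, 21.4 and 30.5 (-3.71).

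Immediate early transcription factors, which cells switch on within minutes of a growth signal, held many falls. Of 21 tested, 16 fell, none rose and 5 did not pass the test. Their median log2 change was -3.23, beside 0.05 for all genes, and -1.5 on the log2(TPM + 1) scale. Fos, a subunit of AP-1, measured 16, 20.6 and 22.5 CPM at 0 h and 1.52, 1.57 and 3.89 at 2 h, with no overlap and a log2 change of -3.11 (SE 0.37, adjusted p = 2.35e-05). Its partner Jun measured 45.9, 29.1 and 37 CPM at 0 h and 2.21, 1.19 and 5.34 at 2 h. The groups do not overlap, and the log2 change was -3.71 (SE 0.46, adjusted p = 3.87e-05). Fosl2, another AP-1 subunit, fell from 68.4, 51.8 and 44.8 CPM to 2.99, 1.89 and 3.74 (-4.26). Egr1, a growth factor induced zinc finger factor, fell from 43.2, 19.6 and 25.1 CPM to 1.93, 0.973 and 1.98 (-4.17). Cebpd, a factor of the C/EBP family, fell by 4.26 on the log2 scale. In this list 8 genes were called without the libraries of replicate 2, and 10 without the 2 h library of replicate 1 or of replicate 2 or with the 6 libraries fitted alone. The 4 rule-named members Fosl2, Egr1, Fos and Cebpd kept the call throughout.

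The cultures grew in FGF and EGF, which signal through the ERK kinases. Of 23 ERK feedback inhibitors and ETS effectors, 15 fell and none rose, with a median of -2.66, and no single library or replicate moved that count by over 1.5 times. Dusp6 (chromosome 10, 99263231 to 99267489), the phosphatase that switches off ERK, measured 120, 110 and 136 CPM at 0 h and 2.21, 3.35 and 2.67 at 2 h. The groups do not overlap, and the log2 change was -5.47 (SE 0.41, adjusted p = 1.69e-07). Spry4, a Sprouty inhibitor of receptor tyrosine kinase signalling, measured 321, 609 and 439 CPM at 0 h and 26.8, 24.5 and 16.9 at 2 h. The log2 change was -4.32 (SE 0.29, adjusted p = 6.27e-08), again with no overlap. Its relative Spry2 fell from 676, 250 and 196 CPM to 20.9, 16.4 and 26 (-4.15). At 0 h Spry2 was highest in replicate 1 and Spry4 highest in replicate 2, and the spread was far smaller at 2 h for Spry2.

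**Figure D2:**
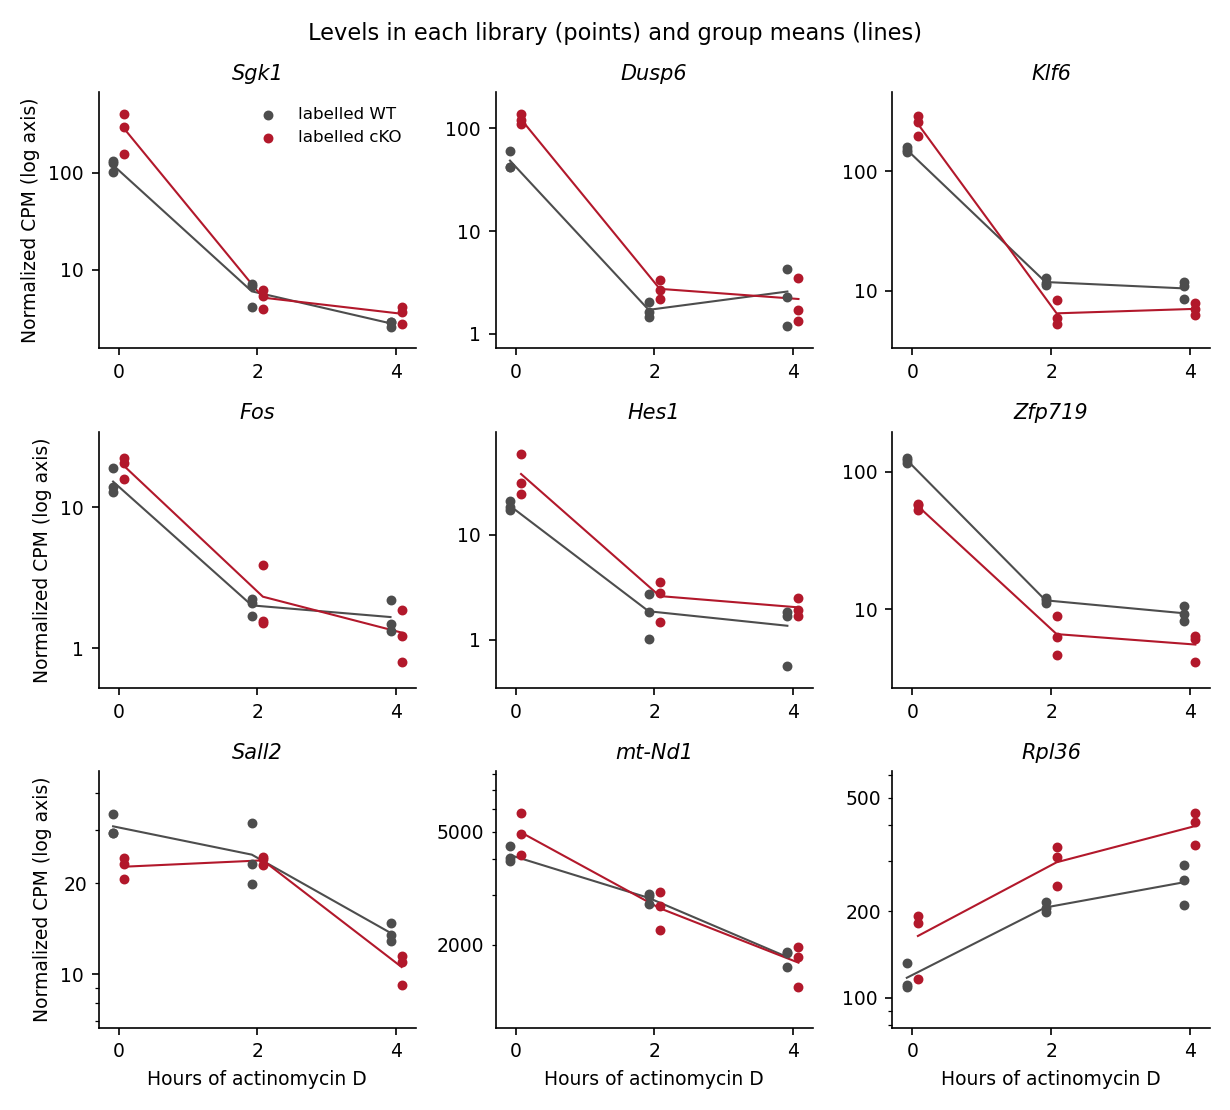
Normalized CPM (log axis) against hours of actinomycin D for 9 genes; points are single libraries, red labelled cKO and grey labelled WT, and lines join group means. Sgk1, Dusp6, Klf6, Fos, Hes1 and Zfp719 drop between 0 and 2 h, and none of the 6 was called between 2 and 4 h in the libraries labelled cKO; Sall2 stays level to 2 h and drops after it, mt-Nd1 is lower at 2 h than at 0 h, and Rpl36 rises from 117 to 193 CPM at 0 h to 245 to 337 at 2 h in the libraries labelled cKO (a rise relative to other transcripts, under the scaling used).

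Further lists of transcription factors held falls. Of 13 Kruppel-like factors, 8 fell and none rose (median -0.84). Klf10, a TGF-beta inducible member, fell from 152, 243 and 164 CPM to 10.6, 11.6 and 12.4 (log2 change -4.02), and Klf7 fell from 15.2, 23.6 and 23.7 CPM to 6.71, 6.7 and 6.64 (-1.64). Klf5 measured 4.72, 3.3 and 2.87 CPM at 0 h and 0, 0.054 and 0 at 2 h, which is too few counts at 2 h for a fold. Of 12 genes of the Myc and Max network, 4 fell. Myc, a driver of growth and proliferation, measured 152, 66.3 and 48.9 CPM at 0 h and 5.33, 2.86 and 3.89 at 2 h (-4.46, SE 0.42, adjusted p = 2.09e-06), with no overlap. Of 15 clock genes and bHLH repressors, 7 fell. Among them Bhlhe40, a repressor of the clock loop, fell from 73.9, 162 and 172 CPM to 4.78, 2.97 and 4.2 (-5.09), and Nfil3, a bZIP clock output repressor, fell from 11, 11 and 8.52 to 0.368, 0.324 and 0.458 (-4.72). Cry1, a core clock repressor, fell by 1.11. Without the libraries of replicate 2 or its 2 h library, 5 Kruppel-like factors, 2 genes of the Myc network and 3 clock genes were called. Without the libraries of replicate 1, the counts for Kruppel-like factors and the Myc network were also 5 and 2. With the 6 libraries fitted alone, 4 Kruppel-like factors, 2 genes of the Myc network and 2 clock genes were called, and Cry1 lost its call. Klf10, Klf7, Myc, Bhlhe40, Nfil3 and Cry1 kept the call under each library left out.

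Of 20 NF-kB, cytokine and chemokine feedback genes, 13 fell and none rose, with a median of -2.92. Ptgs2, the inducible cyclooxygenase, measured 64.7, 72.1 and 52.1 CPM at 0 h and 1.33, 0.973 and 2.82 at 2 h. The groups do not overlap, and the log2 change was -5.24 (SE 0.53, adjusted p = 4.24e-06). Nfkbia, the inhibitor that holds NF-kB in the cytoplasm, measured 29.1, 24.1 and 27.6 CPM at 0 h and 1.7, 3.19 and 5.42 at 2 h (-2.99, SE 0.37, adjusted p = 3.65e-05), without overlap. Nfkbiz, an atypical nuclear member of the same family, fell by 3.55 and Socs5, a suppressor of cytokine signalling, fell by 2.95. No library or replicate left out moved this count by over 1.5 times.

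Genes that encode regulators of mRNA decay were themselves among the losses. Of 19 AU-rich element binders and activators of deadenylation, 11 fell and none rose (median -1.23), and this count too held within 1.5 times under every library left out. Zfp36l2, which binds AU-rich elements, measured 45.8, 39.6 and 23.7 CPM at 0 h and 6.48, 5.84 and 9.39 at 2 h (-2.33, SE 0.27, adjusted p = 2.06e-05), with no overlap. Tob2 and Btg2, which link RNA-binding proteins to the CCR4-NOT deadenylase, fell by 3.29 and 2.24. Tnrc6a, the GW182 scaffold of microRNA silencing, fell from 33.8, 46.1 and 34 CPM to 12.7, 9.73 and 10.3 (-1.79). Of 52 deadenylase, decapping, exosome and nonsense-mediated decay genes, 11 fell and none rose, with a median of -0.12. Among these was Smg1, a kinase of nonsense-mediated decay, which fell by 1.37. The count was 3 without the libraries of replicate 2 and 6 without the 0 h library of replicate 1. With the 6 libraries fitted alone it was 1, and 7 of the AU-rich list were lower.

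Of 23 m6A writers, erasers and readers, 3 fell, a share of 13% that lies near the 9.85% of all genes, and none rose (median -0.35). Cbll1, a subunit of the methyltransferase complex also known as Hakai, measured 27.4, 41.4 and 30 CPM at 0 h and 15.6, 8.27 and 9.62 at 2 h. The groups do not overlap, and the log2 change was -1.56 (SE 0.28, adjusted p = 0.00115). Ythdf3, a cytoplasmic reader related to YTHDF2, measured 137, 69.5 and 62.3 CPM at 0 h and 48.2, 41.6 and 56.1 at 2 h. The gap between its groups is narrow, and the log2 change was -0.88 (SE 0.25, adjusted p = 0.0297). Zc3h13, a further subunit of the writer complex, fell by 0.71 (adjusted p = 0.0235). The edgeR calls of Ythdf3 and Zc3h13 were lost without the 0 h library of replicate 1 and without the 2 h library of replicate 1 or 2, with adjusted p up to 0.257 and 0.263 over all alternatives, and that of Zc3h13 also without the 2 h library of replicate 3. The list's count was 1 without the libraries of replicate 2, without either library of replicate 1 or without the 2 h library of replicate 2. It rose to 6 without replicate 3, to 5 without its 0 h library and to 5 with the replicate block. With the 6 libraries fitted alone the count was 1.

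Falls were also frequent among C2H2 zinc finger genes. Of 313 genes with a Zfp symbol, 162 fell, which is 51.8% of the list beside 9.85% of all genes tested, and 1 rose. Their median log2 change was -1.16. Zfp719 measured 57.1, 58.6 and 52.9 CPM at 0 h and 8.83, 6.21 and 4.66 at 2 h. The groups are well apart, and the log2 change was -3.09 (SE 0.23, adjusted p = 1.49e-07). Zfp189 fell from 22.2, 30.5 and 22.7 CPM to 2.48, 1.89 and 2.14 (-3.52). Zfp281, a regulator of pluripotency and of stem cell states, fell from 118, 81.8 and 58.5 CPM to 10.3, 8.81 and 9.54 (-3.17). The related Zbtb, Zkscan and Zscan genes had 19 of 52 lower, none higher and a median of -0.96. Zbtb6 fell from 28.4, 27.9 and 28 CPM to 7.95, 6.38 and 8.55 (-1.88), with little spread in either group. Without the libraries of replicate 2 the counts lower were 95 and 10, and with the 6 libraries fitted alone they were 84 and 12. Many of these genes are members of large families with near-identical stretches, and how the counting treated reads that fit several of them is not given in the sources used here.

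Of 30 histone methyltransferases, acetyltransferases and related genes, 11 fell and none rose, with a median of -0.72. Kdm6a, an H3K27 demethylase, measured 35.6, 42.3 and 44 CPM at 0 h and 5.56, 8 and 10.2 at 2 h (-2.37, SE 0.28, adjusted p = 1.98e-05), with no overlap. Setd2, which trimethylates H3K36, fell from 45.5, 64 and 52.1 CPM to 18.1, 13.9 and 11.5 (-1.89), and Tet2, which oxidizes 5-methylcytosine, fell from 22.8, 24.9 and 23.3 to 7.17, 6.32 and 5.8 (-1.88). Eed, a core subunit of Polycomb complex PRC2, fell by 1.09. Counts were 4 without the libraries of replicate 2, 7 without the 0 h library of replicate 1 and 5 without the 2 h library of replicate 2, while these 4 genes kept the call under each of those. With the 6 libraries fitted alone the count was 3, and Eed lost the call.

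The series concerns TGF-beta signalling. Of 24 ligands, receptors and SMADs with their regulators, 6 fell and none rose (median -0.51). Among receptors, Tgfbr1, the type I receptor kinase, measured 31, 30.9 and 21.7 CPM at 0 h and 16.2, 15.1 and 11.4 at 2 h (-0.96, SE 0.21, adjusted p = 0.0062), without overlap. The activin receptor Acvr2a fell by 1.23. Smad3, which carries the TGF-beta signal to the nucleus, measured 51.3, 63.7 and 81.6 CPM at 0 h and 35.8, 27.3 and 41.4 at 2 h (-0.91, adjusted p = 0.0276). The SMAD corepressor Tgif1 measured 37.8, 46.9 and 71.8 CPM at 0 h and 6.39, 9.13 and 22.5 at 2 h (-2.05, SE 0.45, adjusted p = 0.00566). Skil, a further corepressor, was lower by 1.28 on the log2 scale, close to the change of Acvr2a. None of the list was called without the libraries of replicate 2, where Skil reached an adjusted p of 0.0579, and with the replicate block 10 fell and 1 rose. With the 6 libraries fitted alone 1 fell, and Tgfbr1, Acvr2a, Smad3 and Tgif1 lost the call. The call of Smad3 was also lost without the 0 h library of replicate 2 or 3 and without the 2 h library of replicate 1 or 2 (adjusted p up to 0.204).

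In the BMP list, 6 of 22 genes fell and 1 rose (median -0.38). Id1 and Id3, inhibitors of differentiation that BMP induces, measured 23.2, 21.8 and 34.7 CPM and 56.7, 70.2 and 70.1 CPM at 0 h, against 1.29, 1.51 and 3.21 and 3.08, 7.08 and 13.2 at 2 h. Neither gene's groups overlap, and the log2 changes were -3.76 (SE 0.51, adjusted p = 9.28e-05) and -3.09 (SE 0.44, adjusted p = 0.000154). Bmp2, a ligand, fell by 4.00 and Bambi, a decoy receptor, fell by 3.03. The gene that rose was Bmper, a secreted modulator of BMPs, at 11.3, 13 and 10 CPM against 37.1, 23.7 and 11.7 (1.08, adjusted p = 0.0489). The groups overlap, and the call was lost without either library of replicate 1 or 2 and without the 0 h library of replicate 3. Of 23 Notch genes, 4 fell (17.4%) and Dll3 rose (median -0.46). Hes1, the repressor that Notch induces, measured 24.1, 58.3 and 31 CPM at 0 h and 1.47, 3.57 and 2.75 at 2 h (-3.87, SE 0.45, adjusted p = 1.68e-05), with no overlap. The ligand Dll1 fell by 2.02, and Maml1, a coactivator of Notch, fell by 1.56. Dll3, a Notch ligand that acts within the cell, measured 0.745, 0.375 and 0.478 CPM at 0 h and 1.7, 1.19 and 1.37 at 2 h (1.41, adjusted p = 0.0198), and lost the call without replicate 2, its 0 h library or the 2 h library of replicate 1. Without replicate 2 the Notch list had 2 lower, and with the replicate block 6 lower and 4 higher. Over all 14029 genes the block gave 2214 lower and 1373 higher. With the 6 libraries fitted alone the Notch list had 1 lower and none higher.

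Of 30 Wnt receptors and feedback targets, 5 fell (16.7%) and none rose (median 0.07), among them the coreceptor Lrp6 (-0.92) and the feedback gene Axin2 (-1.74). That count ranged from 0 to 5 over the libraries and replicates left out, and was 0 without replicate 2 and with the 6 libraries fitted alone. In the Hippo list, 3 of 20 fell (15%), and Cyr61, a matricellular YAP target, fell from 21.4, 30.9 and 34 CPM to 0.23, 0.54 and 1.68 (-5.23, SE 0.61, adjusted p = 1.86e-05). In the Hippo list 6 genes fell without the libraries of replicate 3. Of 40 neural progenitor transcription factors, 7 fell (17.5%) and 1 rose (median -0.36). Pou3f2 (Brn2) fell from 52.3, 39.1 and 28.3 CPM to 16.8, 16.7 and 15.6 (-1.29), and Zeb2, a SMAD-interacting repressor, fell by 1.04. The gene that rose was Nfix, a factor of the NFI family linked to quiescence (0.69, adjusted p = 0.048). Its call was lost without either library of replicate 1 or 2, with adjusted p up to 0.584 over the alternatives. Sox2, which keeps stem cells undifferentiated, measured 102, 61.9 and 69.8 CPM at 0 h and 28, 33.2 and 59.8 at 2 h. Its log2 change was -0.95 (SE 0.34, adjusted p = 0.083), or adjusted p = 0.0108 with the replicate block. The third replicate had the highest Sox2 at 2 h. With that block 14 of these factors fell, and with the 6 libraries fitted alone 3 did. Without the libraries of replicate 2 there were 4, and without those of replicate 3 or its 2 h library there were 11.

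Counts in the cell cycle lists lay near or below the background. Of 32 G1 cyclins, CDKs and inhibitors, 4 fell (12.5%, beside 9.85% of all genes) and 1 rose. Cdc25a, the phosphatase that opens S phase, fell from 9.36, 9.68 and 5.1 CPM to 0.828, 1.62 and 0.382 (-3.05), and E2f3, an S phase transcription factor, fell by 2.56. Cdk4, the kinase partner of the D cyclins, was the gene that rose, from 258, 387 and 259 CPM to 544, 536 and 362 (0.67, SE 0.21, adjusted p = 0.0443). The groups overlap between replicates, and the call was lost without either library of replicate 1, the 0 h library of replicate 3 or the 2 h library of replicate 2. Of 40 mitosis genes, 1 fell (2.5%) and none rose (median 0.07), and of 40 DNA replication genes, 3 fell (7.5%) and none rose (median 0.30). Sgol1, which protects centromeric cohesion, measured 78.5, 62.6 and 24.5 CPM at 0 h and 21.9, 13.5 and 5.27 at 2 h, with no overlap (-2.02, SE 0.46, adjusted p = 0.00777), a call that was lost without the libraries of replicate 2 (adjusted p = 0.109). The licensing factor Cdt1 fell from 10.8, 4.13 and 2.15 CPM to 0.69, 1.24 and 1.14 (-2.47), a call that was lost without the libraries of replicate 1 or its 0 h library. Mitosis counts were 6 lower and 2 higher with the replicate block, those for replication 3 and 5. Over all 14029 genes the block gave 2214 lower and 1373 higher. Without the libraries of replicate 3, mitosis had 5 lower and 3 higher, 7 replication genes rose, and 9 of the G1 genes fell and 4 rose. Of all 14114 genes tested in that setting, 1801 fell and 1021 rose. With the 6 libraries fitted alone, no gene of the mitosis or replication list was called.

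Among p53 and its targets, 5 of 28 fell (17.9%) and 1 rose. The gene that rose was Trp53 itself, at 46.1, 57.4 and 51.8 CPM against 95, 75.5 and 77.8 (0.68, SE 0.18, adjusted p = 0.0228), with no overlap. That call was lost without either library of replicate 1 and without the libraries of replicate 2, where the list had 2 lower, and without the 2 h library of replicate 2 alone it had 3. In the splicing list, 3 of 22 fell (13.6%), and all were CLK kinases, which phosphorylate SR proteins. Clk1 measured 185, 131 and 115 CPM at 0 h and 52, 36 and 35.5 at 2 h (-1.80, SE 0.25, adjusted p = 0.000116), with no overlap, and Clk4 fell by 1.58. The call of Clk2 was lost without the libraries of replicate 1 or 2, the 0 h library of either or any one of the 2 h libraries (adjusted p up to 0.299). The count was 5 without the libraries of replicate 3 and 6 without its 0 h library. Srsf2, an SR protein, measured 343, 137 and 81.9 CPM at 0 h and 103, 106 and 72 at 2 h, with overlapping groups (adjusted p = 0.0742). Of 20 nuclear long noncoding RNAs and snoRNA hosts, 3 fell (15%). Snhg5, a snoRNA host, measured 41.6, 41.5 and 23.5 CPM at 0 h and 6.34, 6.32 and 9.62 at 2 h (-2.26, SE 0.32, adjusted p = 0.000143). Kcnq1ot1, the long imprinted transcript that silences its neighbours, fell from 60, 46.2 and 36.2 CPM to 16.7, 8.97 and 9.46 (-2.01). It overlaps Kcnq1 on the opposite strand, and a host gene shares reads with the snoRNAs in its introns; whether the counting used strand is not given in the sources used here. By RefSeq biotype, 1298 of 12808 protein-coding genes fell (10.1%), as did 29 of 583 lncRNAs (4.97%) and 9 of 30 snoRNAs (30%).

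Stress lists moved little. Among 21 heat shock chaperones, Dnajb4 alone fell (-1.35), and among 26 ATF4 stress genes and aminoacyl-tRNA synthetases, Atf4 alone fell, from 14.9, 19.7 and 27 CPM to 4.55, 3.89 and 13.3 (-1.52, SE 0.40, adjusted p = 0.0172). The Atf4 call was lost without the libraries of replicate 2, the 0 h library of replicate 3 or the 2 h library of replicate 1 or 2. In the glycolysis and hypoxia list, 2 of 32 fell and none rose, beside 8 higher and 3 lower with the replicate block and 7 higher without the libraries of replicate 3, where 4 heat shock genes fell. Pfkfb3, which makes the activator of phosphofructokinase, fell from 19, 33.3 and 28.8 CPM to 6.02, 8.86 and 6.72 (-1.91, SE 0.26, adjusted p = 0.000101). Pkm2, the symbol used for muscle pyruvate kinase, measured 217, 858 and 959 CPM at 0 h and 2097, 1672 and 1057 at 2 h. All 2 h libraries were above all 0 h libraries, yet the log2 change of 1.25 (SE 0.40) had an adjusted p of 0.052. The first replicate started far below the other two.

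Cholesterol synthesis genes fell in part. Of 23 tested, 9 fell and none rose, with a median of -0.33. Insig1, which retains the SREBP machinery in the endoplasmic reticulum, measured 369, 210 and 169 CPM at 0 h and 71.7, 93.2 and 105 at 2 h (-1.47, SE 0.31, adjusted p = 0.00386), with no overlap. Cyp51, a demethylase of the pathway, measured 408, 356 and 368 CPM at 0 h and 216, 220 and 227 at 2 h (-0.77, SE 0.15, adjusted p = 0.0028). Without the libraries of replicate 2, 4 genes of the list were called, and with the 6 libraries fitted alone, 2.

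Messages made in the mitochondrion, which come from a polymerase of its own, also lost share. All 8 tested had a negative change (median -0.59) and 3 fell, all subunits of complex I. The message mt-Nd1 measured 5849, 4921 and 4162 CPM at 0 h and 3081, 2737 and 2262 at 2 h, with no overlap and a log2 change of -0.89 (SE 0.16, adjusted p = 0.00124). For mt-Nd5 the values were 1474, 1293 and 1324 CPM at 0 h and 742, 716 and 806 at 2 h (-0.85, SE 0.13, adjusted p = 0.000248). Counts from the mitochondrial genome made up 3.09 to 3.16% of the 0 h libraries and 2.02 to 2.25% of the 2 h libraries. With the replicate block or without the libraries of replicate 3, 5 of the 8 fell, and with the 6 libraries fitted alone none did.

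Nuclear genes of the ribosome and of the respiratory chain supplied many of the rises, all of them relative to other transcripts. Of 84 cytosolic ribosomal protein genes, 22 rose (26.2%, beside 2.21% of all genes) and none fell, with a median of 0.39, while with these genes themselves as the reference 1 rose and the median was 0.00. Rps19 measured 344, 581 and 517 CPM at 0 h and 799, 862 and 871 at 2 h (0.81, SE 0.17, adjusted p = 0.00388), with no overlap. For Rpl29 the values were 271, 269 and 223 CPM at 0 h and 382, 444 and 396 at 2 h (0.68, SE 0.13, adjusted p = 0.00191). Of 76 nuclear oxidative phosphorylation genes, 19 rose, none fell and all 76 had a positive change (median 0.42), while with the ribosomal reference none rose and the median was 0.00. Ndufb10, a complex I subunit, measured 372, 446 and 438 CPM at 0 h and 568, 639 and 660 at 2 h, with no overlap (0.57, SE 0.13, adjusted p = 0.00639). Mitochondrial ribosomal protein genes had 9 of 75 higher and none lower, and proteasome subunits 2 of 37 higher and none lower, while with the ribosomal reference 7 and 2 of them were lower and none higher. Mrpl14, of the large mitochondrial subunit, rose from 48.1, 68.8 and 71 CPM to 96.3, 112 and 123 (0.82).

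The size of these rises depends on what is held level. With ribosomal protein genes as the reference, the median of all genes moved from 0.05 to -0.355, 2902 genes were lower and 35 higher (1.19% of the calls), so the number of rises depended on the reference. Ribosomal protein counts made up 4.05 to 4.85% of the 0 h libraries and 5.36 to 5.79% of the 2 h libraries. The replicate block gave 54 ribosomal, 47 oxidative phosphorylation, 24 mitochondrial ribosomal and 13 proteasome genes higher. With the 6 libraries fitted alone these counts were 1, 0, 0 and 0. Rps19, Rpl29, Ndufb10 and Mrpl14 lost the call in that fit. Leaving out the libraries of replicate 2 left 7, 0, 0 and 0, and leaving out its 2 h library 7, 3, 1 and 0. Without the 0 h library of replicate 3 or the 2 h library of replicate 1, 11 and 14 ribosomal protein genes rose. Without the 2 h library of replicate 3 the oxidative phosphorylation count was 9, and without the libraries of replicate 1 it was 34. Over all libraries and replicates left out, 0 to 11 mitochondrial ribosomal and 0 to 9 proteasome genes rose. The family holds many processed pseudogenes, with which reads can be shared.

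The 10 largest rises among well expressed genes, by the rule for named genes, were Slc38a3, Atg7, Pld3, Thrsp, Obfc1, Sumf2, Tubg1, Gcat, Bscl2 and Txn2, with log2 changes of 0.97 to 1.25. As for the largest falls, groups that do not overlap were a condition of the choice. Txn2, the mitochondrial thioredoxin, measured 123, 236 and 282 CPM at 0 h and 399, 435 and 423 at 2 h (0.97, SE 0.21, adjusted p = 0.00584), with no overlap. Obfc1, a subunit of the telomeric CST complex, rose from 9.19, 15.9 and 18.2 CPM to 35.6, 38.1 and 23.4 (1.17, adjusted p = 0.00408). Slc38a3, a glutamine transporter, measured 24.3, 20 and 24.7 CPM at 0 h and 94.2, 41.3 and 28.5 at 2 h (1.25, adjusted p = 0.048), with most of the difference in replicate 1. All 10 lost the call without the libraries of replicate 2 and with the 6 libraries fitted alone. Txn2 and Obfc1 kept it under each single library left out, and the other 8 did not.

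Other genes, of low level, rose by more, and 3 of them are given here. Zfhx4, a large zinc finger homeobox gene, measured 0, 0.45 and 0.558 CPM at 0 h and 8.87, 8.43 and 10.5 at 2 h, and was still 8.41, 5.76 and 4.93 at 4 h (adjusted p = 1.95e-05 for 2 h versus 0 h). Libraries labelled WT showed the same step, from 0.135, 0.0843 and 0 CPM to 9.39, 9.36 and 13.5. Stmn2, a neuronal microtubule regulator, measured 1.9, 2.63 and 5.42 CPM at 0 h and 14.1, 13 and 20.1 at 2 h (2.24, SE 0.34, adjusted p = 0.000278), with no overlap. Neurod6, a neuronal bHLH factor, had counts in 1 of the 3 libraries at 0 h (0, 0 and 0.0797 CPM) and measured 1.15, 1.24 and 1.14 CPM at 2 h and 0.229, 0.384 and 0.24 at 4 h. Neurod6 had too few counts at 0 h for a fold. These 3 genes kept the call in every alternative tried, but the alternatives all draw on the same libraries. For scale, the ribosomal protein list had a median log2 change of 0.39. Whether RNA made under the block had a part in these larger rises was not tested.

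Markers of other cell types gave no common shift. Of 14 astrocyte markers, 1 rose (Gjb6, at 0.0828, 0 and 0 CPM against 0.368, 0.324 and 0.305) and none fell, with a median of 0.48 and a summed level of 992 to 1447 CPM at 0 h and 1423 to 1762 at 2 h. With the replicate block 7 rose, while none did without the libraries of replicate 2, its 0 h library or the 2 h library of replicate 1 or 2. Gjb6 had too few counts at 0 h for a fold. Its edgeR call was also lost without the libraries of replicate 3 or its 0 h library (adjusted p up to 0.42 over the alternatives). Of 28 markers of quiescent stem cells, 2 rose and 2 fell. With the block 11 rose and 2 fell, beside 1373 and 2214 of all 14029 genes. None rose without the libraries of replicate 2 or either its 0 h or its 2 h library. Elsewhere the number of rises was 1 without the libraries of replicate 3, its 0 h library or the 0 h library of replicate 1, and 1 fell without the libraries of replicate 1 or 2, either library of replicate 1 or the 2 h library of replicate 2. Of 12 oligodendrocyte lineage markers, Olig2 alone fell, a call that was lost without the libraries of replicate 1 or 2, the 0 h library of replicate 1 or the 2 h library of replicate 2. Of 13 neuronal markers, Stmn2 and Neurod6 rose while Snap25 and Sp8 fell, though neither of the falls was called without the libraries of replicate 2, and the summed level was 114 to 234 CPM at 0 h and 79.2 to 103 at 2 h. None of 11 fibroblast, 5 endothelial or 2 microglial markers passed the test. The summed fibroblast level was 31.3 to 95.9 CPM at 0 h and 29.1 to 96.9 at 2 h. Of 10 microglial markers, 4 were at 0 in all 6 libraries. Of 4 ependymal markers, Foxj1 rose, from 0.166, 0.225 and 1.12 CPM to 1.43, 2.11 and 5.04 (2.48, adjusted p = 0.0287), a call that was lost without the libraries of replicate 2, the 0 h library of replicate 1 or 2 or the 2 h library of replicate 3 (adjusted p up to 0.175). The part of other cell types in the results above was not tested.

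**Figure D3:**
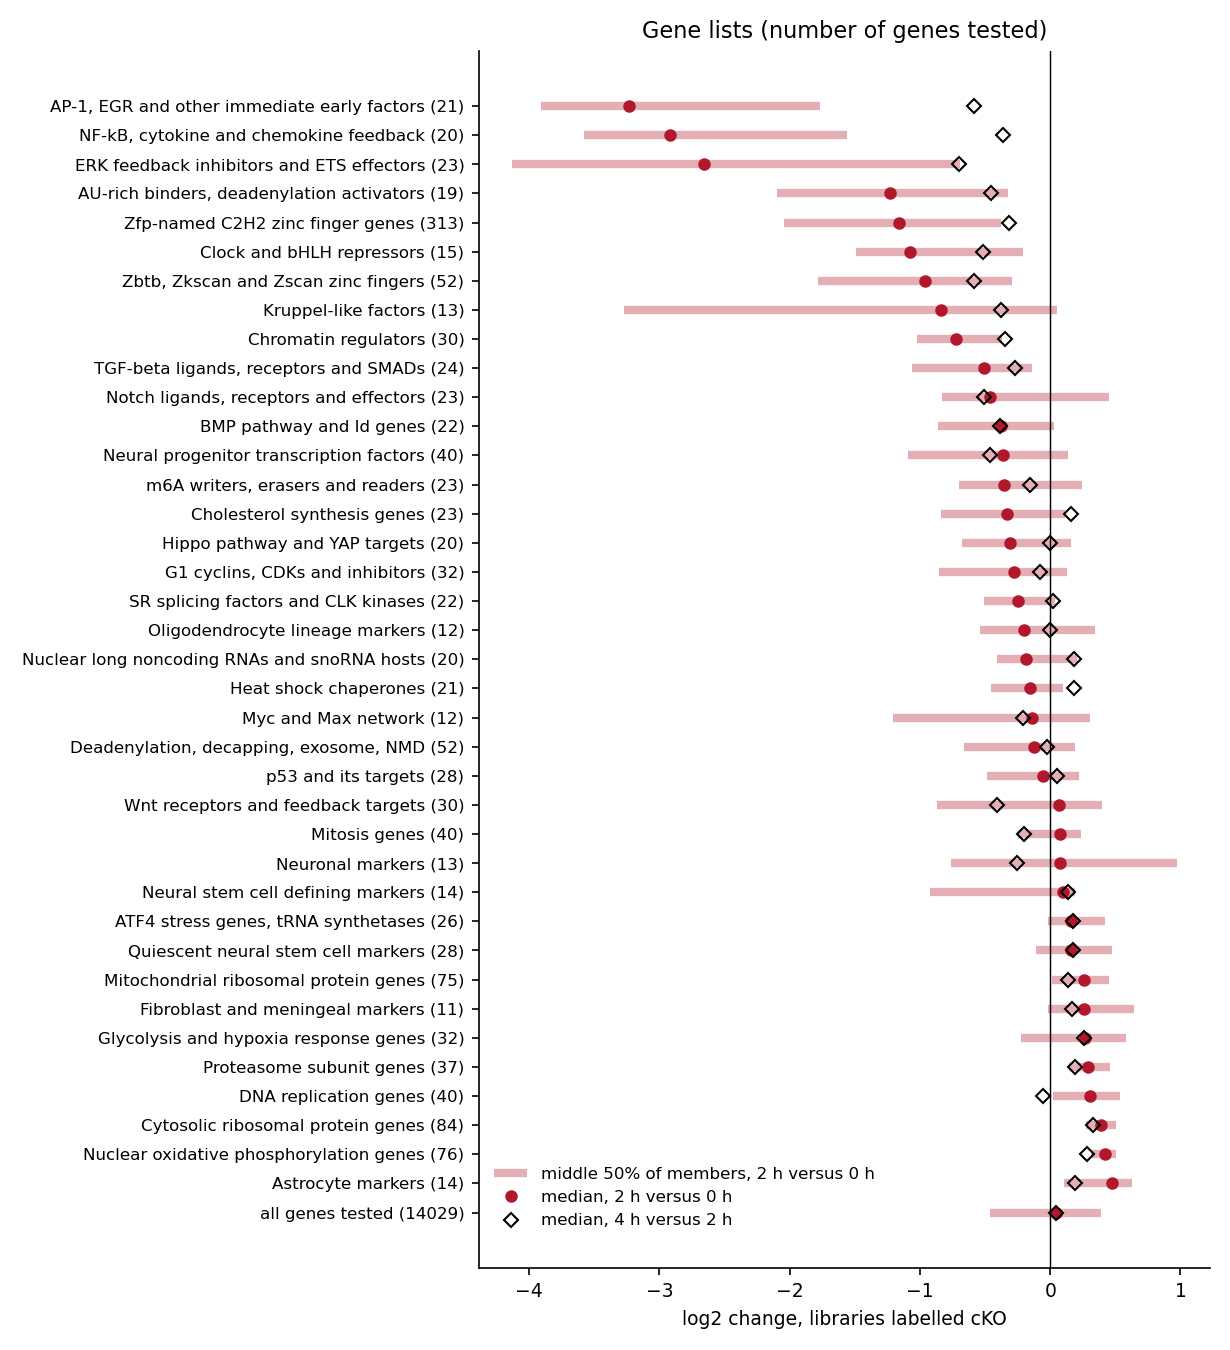
Each row is a gene list with its number of tested genes; bars span the middle 50% of members' log2 changes from 0 h to 2 h, filled points mark their median and open diamonds the median from 2 h to 4 h, in libraries labelled cKO. The immediate early, NF-kB and ERK feedback lists lie at -3.23, -2.92 and -2.66 in the first interval, while cytosolic ribosomal protein genes lie at 0.39 under the scaling used and at 0.00 with those genes as the reference.

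The next interval, 4 h against 2 h, was set beside the first. The intervals share the 2 h libraries, so a high or low value there enters both with opposite signs. From 2 h to 4 h, 111 genes fell (0.791% of those tested) and none rose (0%) by edgeR. At an unadjusted p under 0.05, 316 of the 14029 tested were higher, about what that threshold passes in 1 direction by chance. DESeq2 called 9 higher and 327 lower. With the replicate block the counts were 432 lower and 52 higher, and without the 4 h library of replicate 2, 1 lower. Genes that fell in the first interval had a median of -1.56 there and -0.47 in the second. They were chosen by their fall in the first interval, which by itself tends to make the second median smaller. The immediate early list had a median of -0.58 in the second interval and none of its members was called. A contrast of the 2 intervals tested the difference for each gene. The change was more negative in the first interval for 50 genes (0.356%) and in the second for 6 (0.0428%), or 178 and 28 with the replicate block. Among the 50 were Klf6 (5.37 higher in the second, adjusted p = 1.28e-06), Sgk1 (5.24), Dusp6 (5.14), Klf10 (3.88), Spry4 (3.85) and Zfp719 (2.83). Klf6 measured 6.98, 6.34 and 7.87 CPM at 4 h, close to its 2 h values.

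Some transcripts kept falling or began to fall later. Rasl11a went on to 1.32, 2.11 and 3.18 CPM at 4 h, a second log2 change of -1.99 (adjusted p = 0.00653). Nmd3, an export adaptor of the large ribosomal subunit, measured 204, 162 and 123 CPM at 0 h, 49.6, 41.3 and 46 at 2 h and 17.8, 14.5 and 22.3 at 4 h, with log2 changes of -1.84 and -1.32. Zkscan1 fell by 1.32 and then by 1.16. Sall2, a zinc finger factor of neural progenitors, measured 23.3, 24.2 and 20.6 CPM at 0 h and 24.1, 24.4 and 23 at 2 h, overlapping, and then 9.22, 11 and 11.5 at 4 h (0.07, adjusted p = 0.843, and -1.17, adjusted p = 0.00743). Sin3a, a histone deacetylase scaffold, showed the same order, with -0.32 (adjusted p = 0.294) and -1.21 (adjusted p = 0.00743). Nmd3 and Sin3a were named after their values were seen. The contrast of the 2 intervals had an adjusted p of 0.118 for Sall2 (0.035 with the replicate block) and 0.434 for Sin3a.

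The same 2 h in libraries labelled WT gave 1926 genes lower (13.7%) and 509 higher (3.63%). Across all 14029 genes the log2 changes of the genotypes had a Pearson r of 0.751 (Spearman rho 0.707), and across the 6042 genes at a mean log2 CPM of 4 or more, 0.851 (rho 0.784). These are descriptions across genes, which are not independent replicates, of groups that share no library. The difference between the genotypes' changes, tested as an interaction, was called for no gene in either direction (0% and 0%) by edgeR. At an unadjusted p under 0.05 there were 575 of the 14029 tested, fewer than that threshold passes by chance. Of these, 408 were positive (less negative or more positive in libraries labelled cKO) and 167 negative, a split that was not tested. The smallest adjusted p was 0.0989. The main fit took no account of the pairing of libraries by replicate number. With the replicate block, which does, 1300 genes had such an unadjusted p. That is more than the threshold passes by chance, though none was called after adjustment. DESeq2 called 2 positive and 5 negative. Set side by side, the immediate early list had medians of -3.23 and -2.71 in the libraries labelled cKO and WT, with 16 and 14 genes lower, and the Zfp list medians of -1.16 and -1.43. The TGF-beta list had -0.51 and -1.05, with 6 and 14 genes lower, the Wnt list 0.07 and -0.61, and the mitochondrially encoded messages -0.59 and -0.12. These differences between lists were not tested.

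**Figure D4:**
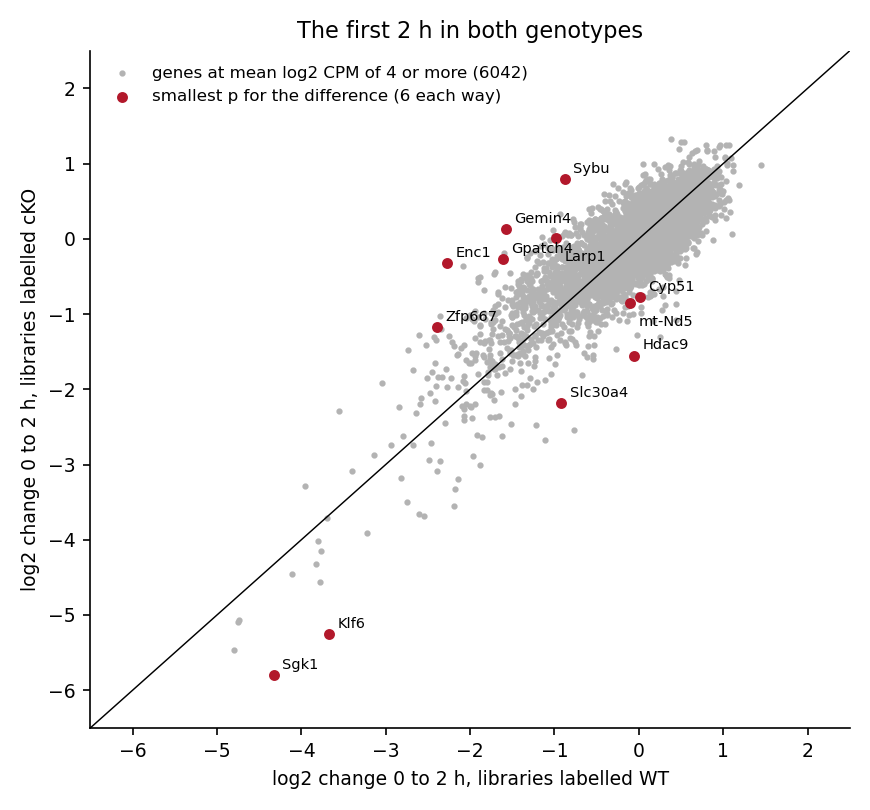
Each grey point is 1 of 6042 well expressed genes; the x axis is the log2 change from 0 h to 2 h in libraries labelled WT, the y axis the same in libraries labelled cKO, and the line marks equal changes. Red points are the 6 genes in each direction with the smallest p for the difference, none of which passed the test (smallest adjusted p 0.0989).

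The genes with the smallest p for that difference are given as values. Enc1, an actin-associated Kelch protein, measured 37.1, 40.8 and 33.7 CPM at 0 h and 42.6, 21.6 and 24.7 at 2 h in libraries labelled cKO. Its log2 change was -0.33 there and -2.27 in libraries labelled WT, a difference of 1.95 (SE 0.34, adjusted p = 0.0989). Gemin4, of the SMN complex, changed by 0.13 against -1.58, and Larp1, which binds messages of ribosomal proteins, by 0.01 against -0.98. In the other direction, Klf6 changed by -5.25 against -3.67, a difference of -1.58 (SE 0.28, adjusted p = 0.0989). Slc30a4, a zinc transporter, measured 349, 226 and 184 CPM at 0 h and 46.4, 55.2 and 65 at 2 h, a change of -2.19 against -0.92. For Hdac9, a class II histone deacetylase, the changes were -1.55 and -0.06, and for mt-Nd5 they were -0.85 and -0.11. Among cholesterol genes, Cyp51 was at -0.77 against 0.01 (difference -0.78, SE 0.22, adjusted p = 0.822). In libraries labelled WT, 1 gene of that list rose and none fell, with a median of 0.03, and the median difference over the list was -0.47, beside 0.04 over all genes. No member's difference passed the test.

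The change was last described by m6A and transcript length. The pull-down from WT cells called 858 genes higher than the input (6.06% of 14167) and 2023 lower (14.3%), or 3627 and 1293 when scaled by library size alone. With a replicate block the counts were 2441 and 2932. Over the 13350 genes with both readouts, divided into 5 groups of equal size by log2 m6A enrichment, the median change from 0 h to 2 h in libraries labelled cKO was 0.25, 0.11, 0.01, -0.12 and -0.18 from the lowest to the highest group. The share called lower was 3.33%, 5.77%, 10%, 15.2% and 16.5%. In libraries labelled WT the medians were 0.34, 0.15, -0.02, -0.19 and -0.36. Pearson's r between enrichment and change was -0.19 in libraries labelled cKO (rho -0.235) and -0.245 in those labelled WT (rho -0.317), across genes. These values share transcript length, which had an r of 0.462 with enrichment on the log2 scale and of -0.166 with the change in libraries labelled cKO. Level differed too, with a median log2 CPM of 4.69 in the lowest m6A group and 2.35 in the highest. Length here is relative, from the ratio of counts to TPM, with the median gene at 1.

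**Figure D5:**
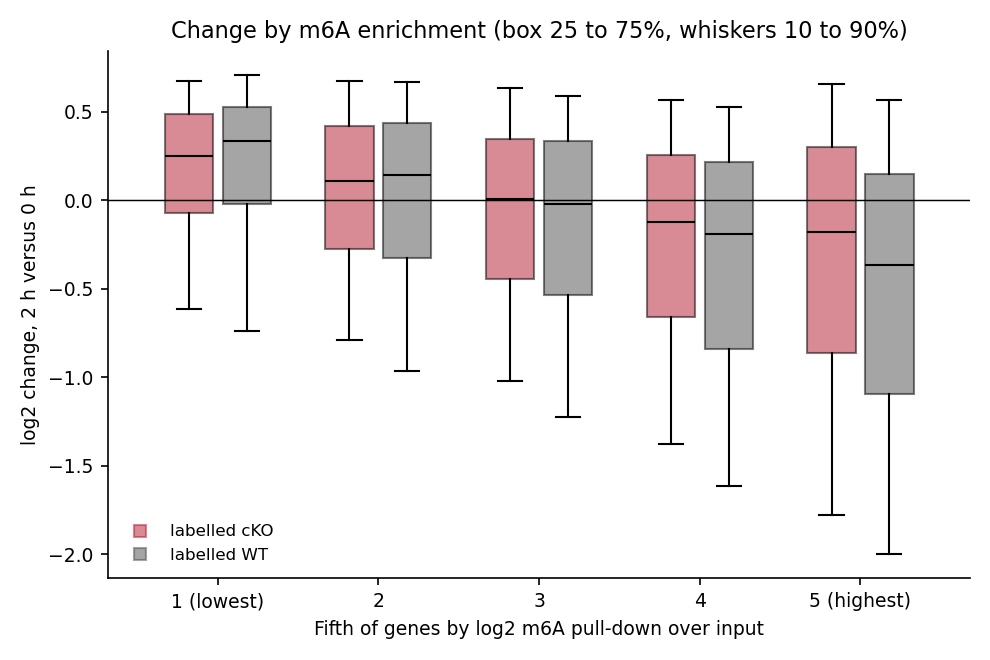
Log2 change from 0 h to 2 h (y axis) for 5 equal groups of genes ordered by log2 m6A pull-down over input (x axis), in libraries labelled cKO (red) and WT (grey); boxes span 25 to 75%, whiskers 10 to 90%, and the line is the median. Medians step down from 0.25 to -0.18 in libraries labelled cKO and from 0.34 to -0.36 in those labelled WT.

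Genes called in the m6A pull-down had a median change of -0.17 in libraries labelled cKO and 20.9% were lower, beside 0.06 and 9.43% for the rest. With genes divided into 3 equal groups by length, these shares were 16.0% and 4.64% in the shortest group, 18.9% and 9.06% in the middle group, and 23.2% and 15.0% in the longest. With 3 equal groups by level, the shares were 18.4% and 9.09% in the lowest, 24.6% and 13.2% in the middle, and 17.3% and 6.13% in the highest. Genes that fell had a median relative length of 1.35 and 13.1% of them were called in the pull-down. Genes that rose had a median length of 0.507 and 2.07% were called, and genes with no call stood between, at 0.978 and 5.72%. Median log2 CPM was 3.42 for genes that fell, 3.64 for those with no call and 5.73 for those that rose. Of the genes with the largest falls, Dusp6 had an m6A log2 enrichment of 0.81 (adjusted p = 0.00169) and Myc one of 0.39 (adjusted p = 0.03). Sgk1 was at -0.35 (adjusted p = 0.125) and Klf6 at 0.26 (adjusted p = 0.132). With a replicate block in edgeR the adjusted p was 0.000181 for Sgk1 and 0.000242 for Klf6.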

How the data were processed

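RNA-seq libraries were made with SMART-seq2 and the m6A libraries with a SMART-seq3-based protocol, per the labels' protocols. The submitters' processing notes name bcl2fastq 2.17.1.14, Trimmomatic 0.32, STAR 2.5.2a and GRCm38; no counter or annotation is named there. The deposited tables hold raw counts per gene symbol and, separately, the authors' TPM values. Counts of all 18 RNA-seq libraries were fitted in R 4.3.3 with edgeR 4.0.16 (filterByExpr, TMM, quasi-likelihood test, 1 mean per genotype and time, 12 residual degrees of freedom), with Benjamini-Hochberg adjustment. The 6 m6A libraries were fitted separately, on 14167 genes. Scripts were tested on simulated data. DESeq2 1.42.0, limma 3.58.1 on log2(TPM + 1), other scalings, no filter, the 6 libraries alone and each library left out were tried. Of the genes tested, 13649 matched RefSeq GRCm38.p6, the source of the coordinates and biotypes.

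Same-numbered RNA-seq libraries deviated together within a genotype (correlations of deviations from group means 0.315 to 0.681 for cKO and 0.103 to 0.251 for WT) and not between genotypes (-0.072 to 0.0293). The replicate block used these pairs (8 residual degrees of freedom). The libraries of a replicate left out are all those labelled cKO with that number, the 4 h library included.

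The members and the 42 gene lists were chosen with earlier results of these data known. Named genes were Ythdf2; the 10 largest rises and 10 largest falls among called genes, at a mean log2 CPM of at least 4 and with groups that do not overlap; the 4 members of each list (2 of marker lists) with the smallest p; and 6 genes per direction for each of the 2 difference contrasts. Jun, Sox2, Nes, Vim, Zfhx4, Rnd3, Nmd3, Sin3a, Trp53, Snap25, Bmper, Nfix, Sp8, Dll3 and Smad3 were named after their values were seen. The YTHDF2 immunoprecipitation tables were not used, because their titles and descriptions name input and pull-down in opposite ways. Untranslated regions were not analysed here. Some genes that the rule names are not reported here.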

Additional observations from a re-analysis of the deposited data

How the results depend on the processing

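For 2 h against 0 h in libraries labelled cKO, the counts of 310 genes higher and 1382 lower became 170 higher with library size alone, 202 higher without the low-count filter, 521 higher with DESeq2, 35 higher and 2902 lower with ribosomal protein genes as the reference, and 121 higher and 2114 lower with limma on log2(TPM + 1). The share of calls that were rises was 18.3%, and 1.19%, 5.41% and 38.3% with the ribosomal reference, TPM and the replicate block. With the 6 libraries alone, 10 were higher and 519 lower, or 26 and 730 with the replicate block. Leaving out 1 library gave 104 to 586 higher and 831 to 1548 lower, and leaving out all libraries of 1 replicate 51 to 1021 and 597 to 1801. The causes of these moves were not tested. Of 146 named genes that were called, 67 kept the call under all 18 alternatives and none reversed. Of 43 named genes not called, 23 were called with the replicate block.

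For 4 h against 2 h (none higher, 111 lower), counts were 1 higher without the filter, 9 and 327 with DESeq2, and 2 and 329 with TPM. They were 384 lower with library size alone and 696 lower with the ribosomal reference. Leaving out 1 library gave 0 to 2 higher and 1 to 188 lower. For the contrast of the 2 intervals (50 and 6), DESeq2 gave 160 and 21, TPM 197 and 15, and 1 library left out 16 to 67 and 5 to 11. For libraries labelled WT (509 higher, 1926 lower), counts higher were 780 with RLE size factors, 162 with library size alone and 1080 with DESeq2. They were 29 higher and 3469 lower with the ribosomal reference, 90 and 3160 with TPM, and 164 to 380 and 1189 to 1509 with 1 library left out. The genotype difference (none called) gave 2 and 5 genes with DESeq2, 10 and 9 with TPM, and 0 to 1 and 0 to 2 with 1 library left out. For m6A (858 higher, 2023 lower), library size alone gave 3627 and 1293, DESeq2 1296 higher and TPM 7236 and 770. With 1 library left out it gave 343 to 841 and 1477 to 1934.

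The replicate block gave 1373 higher and 2214 lower for 2 h against 0 h, 52 and 432 for 4 h against 2 h, 178 and 28 for the contrast of intervals, and 1910 higher for libraries labelled WT. It called no gene for the genotype difference, where 1300 of 14029 genes had an unadjusted p under 0.05. The m6A libraries share numbers, and their deviations correlated at 0.325, 0.411 and 0.0625, beside at most 0.0398 for unlike numbers. The main m6A fit took no account of that pairing. A replicate block there gave 2441 higher and 2932 lower, with Klf6 called higher (adjusted p = 0.000242) and Sgk1 called lower (adjusted p = 0.000181) by edgeR.

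Genes at 3 counts or fewer over a group give no usable fold: 126 of those tested were at or under that floor at 0 h or 2 h, 50 of them called.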
